A study of Rattus norvegicus with 8 samples.

Results

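The nuclear genes for oxidative phosphorylation were followed in the rat PC12 line Htt14A2.5, with and without induction of a mutant huntingtin fragment. Genes were chosen by symbol: those starting with Ndufa, Ndufb, Ndufc, Ndufs or Ndufv (complex I), Sdh (complex II), Uqcr (complex III), Cox4 to Cox8 (complex IV) or Atp5 (ATP synthase, complex V), with Cyc1 and Cycs, and without Ndufa4l2. On an array of 8799 probe sets, 97 probe sets for 55 genes met this rule. Where a gene had several probe sets, the brightest over the 8 arrays stands for it. Of the 55 genes 50 code for subunits. The others are the assembly factors Ndufaf3 and Sdhaf2, the supercomplex factor Cox7a2l, the ATP synthase inhibitor Atp5if1 and the pseudogene Cox6c-ps1. Another 7 probe sets list several symbols and were left out, and no probe set lists Cycs alone.

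PC12 cells were derived from a tumour of the chromaffin cells of the rat adrenal medulla. The labels describe a single stable line, in which a shortened exon 1 of mutant human huntingtin is switched on by an inducer, so both groups carry the transgene. The induced group (+PA, n = 4) was given the inducer ponasterone for 48 h, and the uninduced group (-PA, n = 4) is titled without it. No sample with the inducer and without the transgene was analysed here, so effects of ponasterone and of the fragment cannot be told apart. The source label of replicate 2 is worded differently from that of the other replicates in both groups, for a reason the labels do not give. They also do not say whether replicates were separate cultures, and p-values measure only the spread between these samples. The chromaffin markers Chgb and Phox2a had mean signals of 11593 and 4658. The probe sets for Th, Dbh and Ddc averaged 61.1, 9.38 and 27.4, under the level of control probe sets, and 5 of the 10 chromaffin markers on the array did so. Of the 7 tested, 2 fell on induction, Phox2a (by 0.70 on the log2 scale, limma adjusted p = 0.000484) and Gata3 (by 0.68, limma adjusted p = 0.0152), and their part in the results was not tested. The list did not move 1 way, since 4 of the 7 lay below 0, while Npy, Scg2 and Chgb differed by 0.71, 0.35 and 0.16 (limma adjusted p = 0.433, 0.311 and 0.496). Npy averaged 68.3, also under the level of control probe sets, so the size of its difference is not resolved.

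Oxidative phosphorylation is the mitochondrial process that makes most of the ATP of a respiring cell. Complexes I and II pass electrons from NADH and succinate to ubiquinone, complex III passes them to cytochrome c, and complex IV passes them to oxygen. Complexes I, III and IV pump protons across the inner membrane, and ATP synthase uses the gradient to make ATP. Nearly all subunits are coded in the nucleus, and a few core subunits of complexes I, III, IV and V are coded in mitochondrial DNA. None of the 13 mitochondrial genes was named by a single-symbol probe set here.

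Induction left most of these transcripts close to their uninduced level, and the signals tilted slightly downward. Of the 55 genes 1 fell, the ATP synthase subunit gene Atp5f1e, and 0 rose, by limma with an adjusted p under 0.05 over all 6129 probe sets tested. Over all 3623 genes tested, 2.9% were called lower and 4.31% higher, so the count of calls among these genes is no higher than the background. Over all probe sets tested the shares were 2.97% and 4.1%. At an unadjusted p under 0.05, 3 of the 55 were lower and 0 higher, against 9.72% and 9.05% of all genes. The log2 difference (induced minus uninduced, on log2 of signal plus 7) lay below 0 for 47 of the 55 genes, or 85.5%, and for 57.4% of all genes. Its median was -0.12, beside -0.05 over all genes. Every induced array lay below every uninduced array for 1 of the 55 genes and above for 0, beside 7.26% and 6.6% of all genes. All 55 passed the filter on low signal. For 41 of the 55, the 95% confidence interval of the difference lay inside -0.5 to 0.5, which is a change of less than 1.41-fold either way. The same held for 1051 of all 3623 genes, whose standard errors were larger (median 0.19, beside 0.13 for the 55). The count thus also depends on the precision of the signals. Fewer cells with a transcript and less of it per cell cannot be told apart in such bulk RNA.

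**Figure D1:**
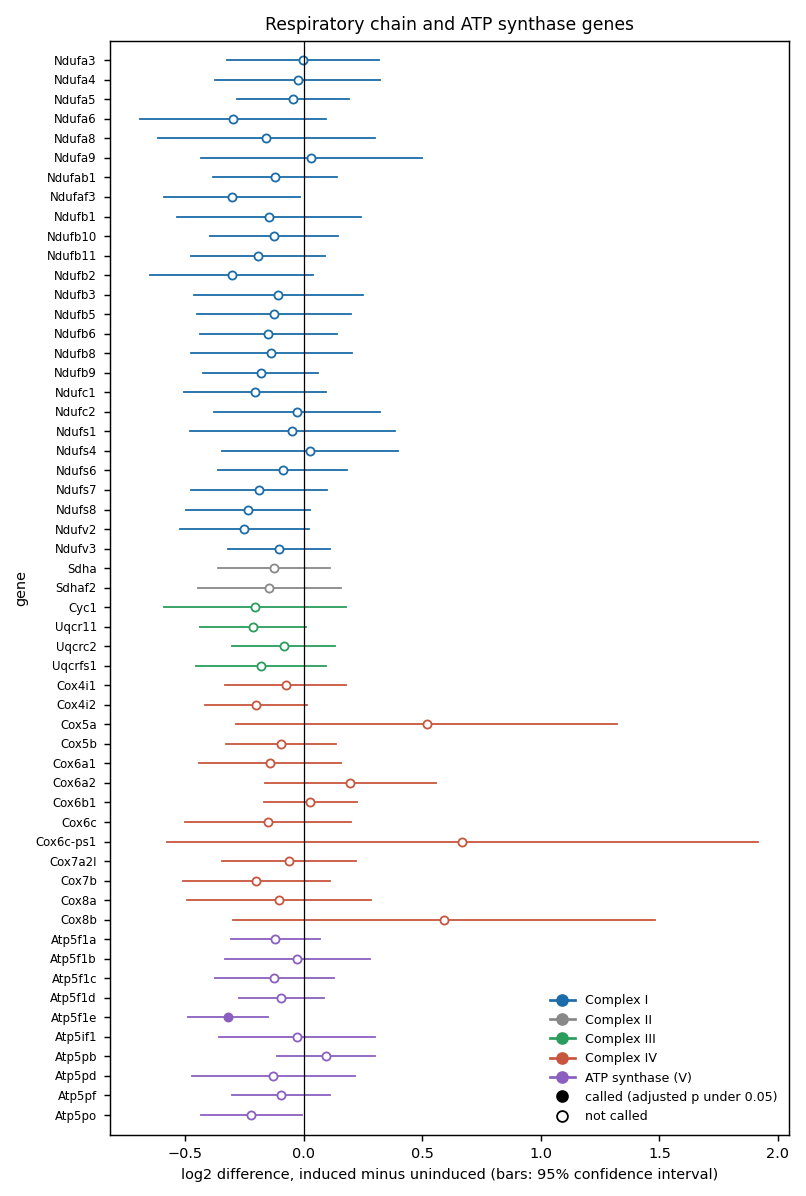
Log2 difference between induced and uninduced cells for each of the 55 genes, with its 95% confidence interval, coloured by complex; the filled point marks the gene that passed the test. Points of 47 genes lie below 0, the filled one is Atp5f1e, and the wide intervals on the right belong to Cox5a, Cox6c-ps1 and Cox8b, whose signals were low.

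RefSeq promoters (GRCr8, 250 bases before to 50 after the start) matched 46 of the 55 genes, whichever way their signals moved. Each was searched on both strands for short words of factors known to act on respiratory genes. The YY1 word AAGATGG was in 12 of 46 (26.1%), beside 7.01% of all 33469 promoters and 7.83% of those of the genes tested. The ETS word CCGGAAG, which GABP binds, was in 10 (21.7%), beside 8.75% and 14.1%. The NRF1 core word GCATGCG was in 4 (8.70%), beside 3.33% and 4.74%, and the Sp1 word GGGCGG in 20 (43.5%), beside 33.1% and 61.3%. Of the 12 genes with the YY1 word, 8 have it 2 to 24 bases after the start. No matches of different words overlapped. A match describes letters and not a bound site.

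The 4 promoters printed are those of the gene that was called, of 2 genes that were called when uninduced replicate 4 was left out, and of Ndufa6, a complex I gene with all 4 words. Atp5f1e lies at chr3:183680143-183680422, strand minus, Cox8a at chr1:213833594-213833873, strand minus, Ndufs8 at chr1:210573669-210573948, strand minus and Ndufa6 at chr7:115750288-115750567, strand minus. The stretch runs from 250 bases before to 30 after the start, 5′ to 3′, with matches to any of the 4 words in capitals. Atp5f1e holds 2 Sp1 words, Cox8a 2 ETS words and 1 YY1 word, and Ndufs8 1 ETS word.
Atp5f1e: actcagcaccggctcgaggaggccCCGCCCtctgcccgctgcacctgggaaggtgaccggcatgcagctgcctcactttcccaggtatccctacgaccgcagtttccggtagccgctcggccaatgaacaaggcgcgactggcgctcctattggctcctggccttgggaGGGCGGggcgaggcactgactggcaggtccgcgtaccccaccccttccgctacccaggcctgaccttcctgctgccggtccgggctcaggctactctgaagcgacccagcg
Cox8a: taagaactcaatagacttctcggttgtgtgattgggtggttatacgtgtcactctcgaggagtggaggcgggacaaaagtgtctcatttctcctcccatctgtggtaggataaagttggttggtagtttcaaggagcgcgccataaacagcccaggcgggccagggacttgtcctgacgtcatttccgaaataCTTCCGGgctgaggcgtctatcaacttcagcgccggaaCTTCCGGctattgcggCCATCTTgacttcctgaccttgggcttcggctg
Ndufs8: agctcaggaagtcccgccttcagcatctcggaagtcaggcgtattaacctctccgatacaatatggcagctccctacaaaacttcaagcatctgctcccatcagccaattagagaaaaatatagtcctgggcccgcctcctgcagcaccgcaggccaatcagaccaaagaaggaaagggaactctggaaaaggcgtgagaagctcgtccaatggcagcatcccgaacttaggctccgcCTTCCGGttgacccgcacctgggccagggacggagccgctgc
Ndufa6: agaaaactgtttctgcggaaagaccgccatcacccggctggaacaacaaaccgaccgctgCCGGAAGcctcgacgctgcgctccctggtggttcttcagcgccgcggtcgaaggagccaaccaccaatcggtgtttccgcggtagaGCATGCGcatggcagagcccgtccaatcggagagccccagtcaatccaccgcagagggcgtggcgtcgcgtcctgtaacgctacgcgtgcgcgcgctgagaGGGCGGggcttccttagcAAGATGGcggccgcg

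Subunits of ATP synthase gave the single call. Atp5f1e codes for the epsilon subunit of the central stalk of the enzyme. Its signals were 5926, 5807, 5800.5 and 5595 in uninduced replicates 1 to 4, and 4798, 4927, 4313 and 4490.1 in induced replicates 1 to 4. Every induced array lay below every uninduced one. The means were 5782 ± 137 and 4632 ± 281 (SD, n = 4 each), a fall by 0.32 ± 0.08 (SE) on the log2 scale, or a fold of 0.80 (limma adjusted p = 0.0262). Its second probe set read 5334 to 6016 without and 4550.2 to 4935 with induction, again with no overlap, and differed by -0.22 ± 0.08 (limma adjusted p = 0.148). The call was lost in 10 of 18 alternatives (adjusted p over all 18 from 0.0208 to 0.191). It was lost without uninduced replicate 1, 2 or 3 and without induced replicate 1, 3 or 4 (limma adjusted p from 0.0507 to 0.0796). It was also lost with median centring of the arrays (limma adjusted p = 0.191).

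Among the other 9 ATP synthase genes 8 differences lay below 0. Atp5po, the subunit of the stator that holds the catalytic head, read 6208, 5473, 5338 and 6174 without and 5167, 5533, 4306 and 4906 with induction, and differed by -0.22 ± 0.10 (limma adjusted p = 0.252). The groups overlapped on this probe set. Its second probe set did not overlap, with 4791 to 5334 without and 3388 to 4731 with induction (-0.36 ± 0.11, limma adjusted p = 0.0823). The catalytic subunit Atp5f1b averaged 11304 ± 2369 and 10891 ± 538 (SD, n = 4 each), a difference of -0.03 ± 0.14 whose sign turned under quantile normalization and in some fits without 1 array. Its partner Atp5f1a differed by -0.12 ± 0.09 and the peripheral stalk subunit Atp5pb by 0.09 ± 0.09. For all 10 ATP synthase genes the confidence interval of the difference lay inside -0.5 to 0.5.

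Complex I, the NADH dehydrogenase, had 26 genes, of which 24 lay below 0 and 0 were called, at a median of -0.13 and a range of -0.31 to 0.03. The 3 lowest p-values were those of Ndufaf3, an assembly factor, Ndufv2, an iron-sulfur subunit of the NADH-binding module, and Ndufs8, an iron-sulfur subunit of the arm that leads to ubiquinone. Ndufaf3 read 585 to 764 without and 470 to 618 with induction (-0.30 ± 0.13, limma adjusted p = 0.245). Its second probe set had nearly the same mean signal (586 beside 591) and differed by only -0.09 ± 0.12 (limma adjusted p = 0.8). The third, with a mean of 69.9, differed by -0.73 ± 0.51 (limma adjusted p = 0.521), so the size of the difference in Ndufaf3 is not settled. Ndufv2 read 4172, 4068, 4282 and 3041 without and 3730, 3396, 2836 and 3061 with induction (-0.25 ± 0.13, limma adjusted p = 0.327). In both genes the groups overlapped, and in Ndufv2 uninduced replicate 4 was the only uninduced array within the induced range. Ndufa4, the brightest of the complex I probe sets and now also counted with complex IV, averaged 7699 ± 1332 and 7588 ± 1591 (SD, n = 4 each; -0.03 ± 0.16), a sign that turned with quantile normalization and without induced replicate 3 or 4 or uninduced replicate 1.

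The 4 tested probe sets of Ndufs8 differed in their result. The one with the highest signal read 2492, 2662, 2263 and 1785 without and 1940, 2035, 1805 and 1948 with induction, and differed by -0.24 ± 0.12 (limma adjusted p = 0.340). The second in signal read 1163, 1158, 1240.4 and 1132 without and 858, 873, 616 and 836 with induction, and fell by 0.57 ± 0.12 (limma adjusted p = 0.0142). On this second probe set every induced array lay below every uninduced one, and uninduced replicate 4 lay close to the other uninduced arrays. The other probe sets differed by -0.27 and -0.16 and were not called. In all, 37 further probe sets of the 55 genes passed the signal filter. Of these 32 lay below 0, at a median of -0.12, and 1, that of Ndufs8, was called.

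Both complex II genes, 4 of 4 complex III genes and 8 of 13 complex IV genes lay below 0, and none was called. In complex II, Sdha, the subunit that oxidises succinate, averaged 1337 ± 135 and 1222 ± 108 (SD, n = 4 each; -0.13 ± 0.11), and the assembly factor Sdhaf2 differed by -0.15 ± 0.14. In complex III, Uqcr11 read 10155, 10486, 10164 and 8410.1 without and 8920.1, 8950.5, 8758 and 7160.5 with induction (-0.22 ± 0.10, limma adjusted p = 0.300). In each group of Uqcr11 replicate 4 lay apart below the other arrays. The Rieske iron-sulfur protein Uqcrfs1 differed by -0.18 ± 0.13, cytochrome c1, coded by Cyc1, by -0.21 ± 0.18, and the core protein Uqcrc2 by -0.09 ± 0.10. 

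Complex IV, cytochrome c oxidase, has subunits with tissue-specific isoforms, which the annotation assigns to separate probe sets. Whether the probes tell the isoforms apart was not tested. The widely used isoforms Cox4i1, Cox6a1 and Cox8a had mean signals of 19498, 21815 and 18674, and differed by -0.08 ± 0.12, -0.14 ± 0.14 and -0.11 ± 0.18. Cox4i2, an isoform known from lung and from low oxygen, read 8023 to 9956 without and 7202 to 8984 with induction (-0.20 ± 0.10, limma adjusted p = 0.320). Cox7b read 2011 to 2732 without and 1783 to 2614 with induction (-0.20 ± 0.14). Cox6a2, a heart and muscle isoform, read 260.0 to 423 without and 337 to 396 with induction (0.20 ± 0.17). Its other probe sets averaged 88.5 and 13.1, under the level of the control probe sets, so its probe sets disagree on whether it was detected. Cox8b, another isoform of heart and muscle, averaged 69.0, below the level of the control probe sets, as did 10 of 11 striated muscle markers on the array, whose summed signals were 390.4 to 933 without and 352 to 855 with induction. The 3 genes with the lowest signals, Cox5a, Cox8b and Cox6c-ps1 (means 63.1 to 69.0), had differences of 0.52 to 0.67 with standard errors of 0.37 to 0.57, so their size is not resolved here. The 95th percentile of 38 control probe sets lay between 101.6 and 183.5 on the 8 arrays.

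The 4 probe sets of Cox8a, which codes for a small subunit of the oxidase, differed in how far 1 array stood apart. The probe set with the highest signal read 21874, 22144, 22668 and 11926 without and 19002, 17317, 18090.4 and 16366 with induction. Uninduced replicate 4 was the lowest of all 8 arrays there. Another probe set read 8887, 7930, 8667 and 8520.0 without and 7101, 7670.1, 7073 and 7000.4 with induction, and here uninduced replicate 4 lay among its own group and the groups did not overlap (-0.24 ± 0.08, limma adjusted p = 0.0999). Over all 92 member probe sets tested, 5 had every induced array below every uninduced array, beside 7.11% of all probe sets, and 0 had every one above, beside 6.48%. They were both of Atp5f1e and 1 each of Atp5po, Cox8a and Ndufs8.

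**Figure D2:**
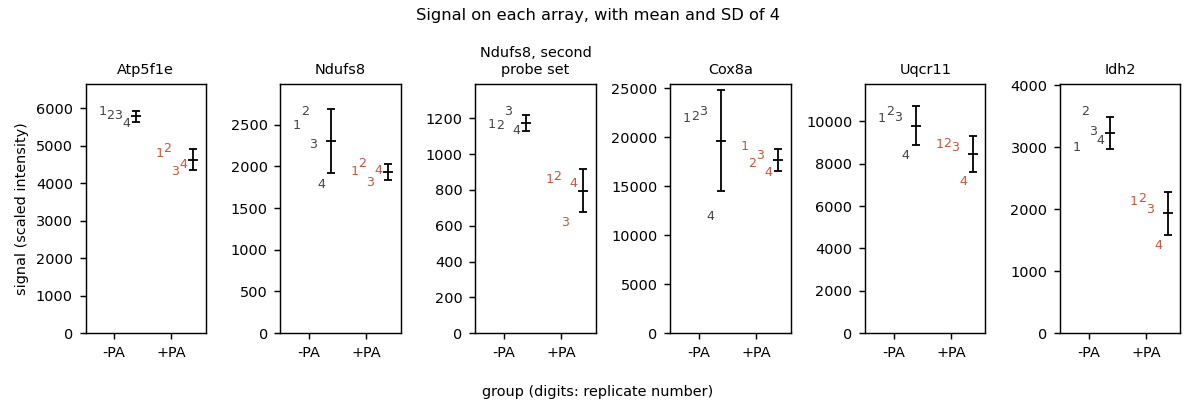
Signal (linear scaled intensity) on each array for 5 probe sets of respiratory genes and for Idh2, without (-PA) and with (+PA) inducer; digits are replicate numbers, and the bars beside them are the mean ± SD of 4. Atp5f1e, the second probe set of Ndufs8 and Idh2 show no overlap, while uninduced replicate 4 lies below all induced arrays for the first probe set of Ndufs8 and for Cox8a.

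These genes also moved together between arrays of the same group. The level on an array is given here as the median, over genes, of the log2 signal minus that gene's mean over the 8 arrays. It was 0.19, 0.14, 0.11 and -0.15 in uninduced replicates 1 to 4 and 0.10, 0.02, -0.17 and -0.17 in induced replicates 1 to 4. Uninduced replicate 4 thus lay with induced replicates 3 and 4, and the groups overlapped (0.07 ± 0.15 and -0.05 ± 0.13, SD, n = 4 each). Uninduced replicate 4 was the lowest of its group for 41 of the 55 genes (74.5%), and for 23.7% of all genes tested. Induced replicates 3 and 4 were the lowest of theirs for 20 and 23 genes (36.4% and 41.8%), beside 18.2% and 24.7% of all genes. Most of these genes had high signals, and among the 1208 genes with a mean signal above 576.3 the shares were 35.9% for uninduced replicate 4, 21.2% for induced replicate 3 and 40.2% for induced replicate 4. For induced replicate 4 the share of these genes was thus close to that of high-signal genes in general.

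The counts by complex were unequal. In complex I uninduced replicate 4 was the lowest of its group for 21 of 26 genes, in complex III for 4 of 4 and in complex IV for 11 of 13. In ATP synthase it was the lowest for 5 of 10 genes and in complex II for 0 of 2. The 14 genes that did not follow included Ndufaf3, Ndufb11, Ndufb8, Ndufc2 and Ndufv3 of complex I. They also included Atp5f1a, Atp5f1b, Atp5pb, Atp5pf and Atp5po of ATP synthase, and the rest were Sdha, Sdhaf2, Cox6c-ps1 and Cox8b. The medians of uninduced replicate 4 were -0.22, -0.13 and -0.29 in complexes I, III and IV, and 0.07 in ATP synthase. The range of the level over the 8 arrays was 0.44 in complex I, 0.50 in complex III, 0.48 in complex IV and 0.31 in ATP synthase, with the groups not overlapping for ATP synthase (0.01 to 0.16 without, -0.14 to -0.01 with induction). These are descriptions of chosen genes and were not tested.

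**Figure D3:**
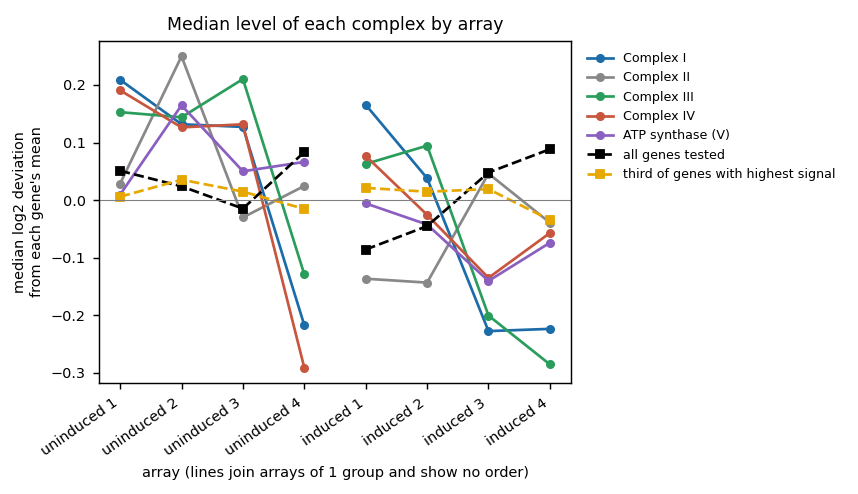
Median log2 deviation from each gene's mean over the 8 arrays (vertical axis), on each array (horizontal axis), for each complex, for all genes tested and for genes with a mean signal above 576.3; lines join arrays of a group and show no order. Complexes I, III and IV are low on uninduced replicate 4 and induced replicates 3 and 4, where the genes with high signal stay between -0.03 and 0.02. ATP synthase is also low on induced replicates 3 and 4 (-0.140 and -0.074, beside -0.135 and -0.057 for complex IV). It is not low on uninduced replicate 4 (0.07).

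Other features of the arrays were read beside this movement. The median over all genes tested moved the other way on these arrays, at 0.08, 0.05 and 0.09 on uninduced replicate 4 and induced replicates 3 and 4. Of the 55 genes 50 were among the 1208 with high signal, and the median of those 1208 moved between -0.03 and 0.04 over all 8 arrays. The log2 ratio of 3' to 5' control signal, a sign of RNA quality, was 0.20 to 0.56 for Gapdh, 0.50 to 1.37 for hexokinase and -0.67 to 0.58 for beta-actin. For uninduced replicate 4 these ratios were 0.20, 1.37 and 0.57, the lowest for Gapdh and the highest for hexokinase of the 8. For beta-actin the ratio was 0.58 on induced replicate 4 and -0.67 on induced replicate 3, both of which were low in complex I. The part of RNA quality or signal level in the movement was not tested.

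**Figure D4:**
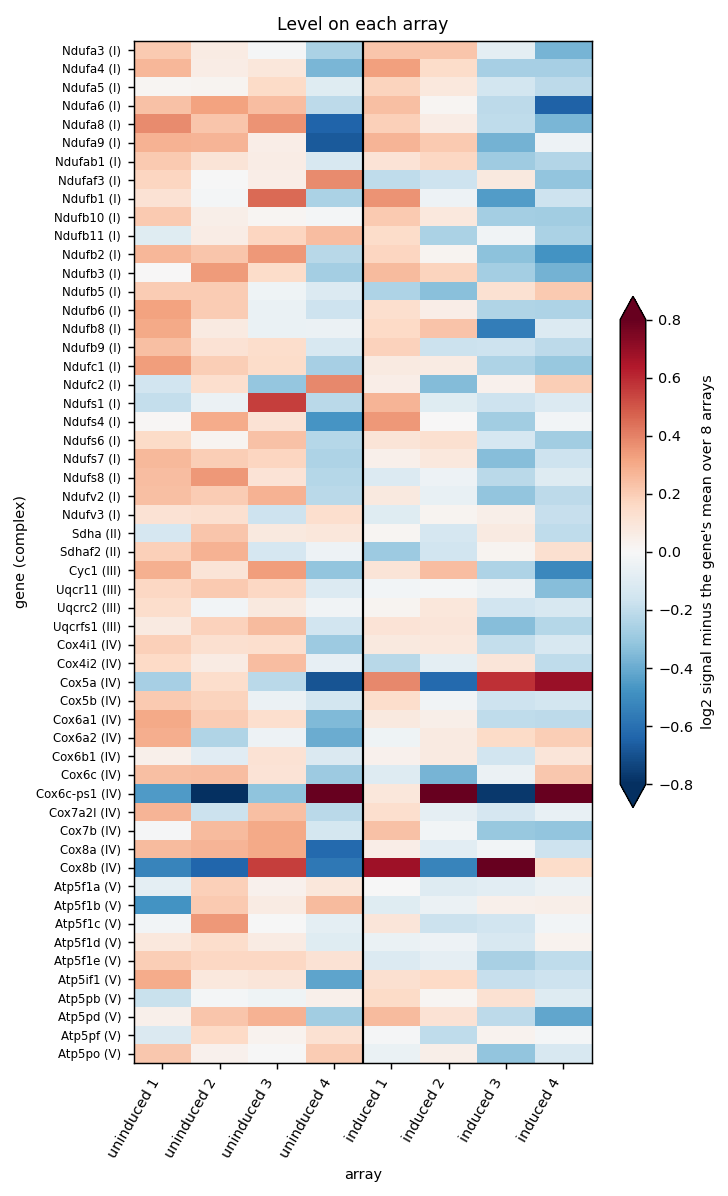
Log2 signal of each of the 55 genes (rows, with the complex in brackets) on each array (columns), as the difference from the gene's mean over the 8 arrays; the vertical line divides the groups. Blue cells gather in complexes I, III and IV on uninduced replicate 4 and induced replicates 3 and 4. ATP synthase genes are split on uninduced replicate 4, which was the lowest of its group for 5 of 10. Atp5pd and Atp5if1 were among these 5, and Atp5f1a and Atp5f1b were not. On induced replicates 3 and 4 the median of ATP synthase was low as well (-0.14 and -0.07).

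Leaving out single arrays changed the comparison. Uninduced replicate 4 was the lowest of its group for 41 of the 55 genes, so leaving it out necessarily raises the uninduced means of those genes. Without uninduced replicate 4, 3 of the 55 genes were called lower (Atp5f1e, Cox8a and Ndufs8) and 13 (23.6%) were lower at an unadjusted p under 0.05, beside 9.96% of all genes in that fit. In the other 7 fits without 1 array the members' share ran from 1.82% to 10.9%, beside 7.87% to 10.5% of all genes. In the fit without uninduced replicate 4 the median over the 55 genes was -0.18, beside -0.03 over all genes, of which 2.65% were called lower. Cox8a fell by 0.33 (limma adjusted p = 0.0285) and Ndufs8 by 0.35 (limma adjusted p = 0.0475) in that fit. Without induced replicate 4 the median over the genes was -0.08, beside -0.09 over all genes, and 0 of 55 were called. Without uninduced replicate 2 it was also -0.08, beside -0.06. The median over these genes was below 0 in all 8 fits without 1 array, and below that of all genes in 7 of them, the exception being the fit without induced replicate 4.

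Lists of other mitochondrial genes were read against the 2.9% of all genes called lower and 4.31% called higher. They are short, so that 1 or 2 calls set the share of a list, and nothing particular to a list is read from it. Of 15 tested genes of the citric acid cycle and pyruvate entry 2 fell and 0 rose, at a median of -0.10. Idh2, the mitochondrial NADP-dependent isocitrate dehydrogenase, read 2988, 3582, 3259 and 3106 without and 2126, 2177, 2002 and 1416 with induction. It fell by 0.76 ± 0.13, or a fold of 0.59 (limma adjusted p = 0.00395), with no overlap of the groups. Its second probe set fell by 0.61 ± 0.10 (limma adjusted p = 0.00198). Idh2 passed in all 18 alternatives (highest limma adjusted p 0.0357). Pyruvate carboxylase, coded by Pc, fell by 0.60 ± 0.16 (limma adjusted p = 0.0450), a call lost in 13 of 18 alternatives and kept in 1 of the 8 fits without 1 array, that without uninduced replicate 3. Citrate synthase, coded by Cs, differed by -0.02 ± 0.12, a sign that turned in 6 alternatives.

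Of 13 carriers and channels 1 fell and 0 rose, at a median of -0.13. The dicarboxylate carrier Slc25a10 fell by 0.42 ± 0.10 (limma adjusted p = 0.0291), a call lost in 10 of 18 alternatives and, of the fits without 1 array, kept without uninduced replicate 2 or 3 or induced replicate 2. The ADP/ATP carriers Slc25a4 and Slc25a5 differed by -0.08 ± 0.09 and -0.13 ± 0.12. The outer membrane channel Vdac1 differed by -0.39 ± 0.13 (limma adjusted p = 0.112), and passed with quantile normalization (0.0474). Of 7 regulators of mitochondrial biogenesis 1 fell, the thyroid hormone receptor gene Thra (0.49 ± 0.14, limma adjusted p = 0.0490), a call lost in 14 of 18 alternatives. Of 14 mitochondrial ribosomal proteins 1 rose and 0 fell, at a median of -0.18. It was Mrps6 (0.50 ± 0.14, limma adjusted p = 0.0472), a call lost in 11 of 18. Of the fits without 1 array, Thra and Mrps6 kept their calls without uninduced replicate 4 alone. Other tested probe sets of Pc, Slc25a10 and Thra were not called (limma adjusted p from 0.175 to 0.787). None of 8 assembly and electron entry genes (median -0.08) or 10 import and chaperone genes (median 0.04) was called. Of fibroblast, leukocyte and adrenal cortex markers none was called, and summed signals of the adrenal cortex list were 160.3 to 292 without and 103 to 254 with induction. Of 4 tested Schwann cell and glia markers 1 rose, the myelin protein gene Pmp22 (0.81 ± 0.18, limma adjusted p = 0.0161). The other 3, Mbp, Cnp and S100b, lay below 0 (-0.28, -0.14 and -0.34) and were not called.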

How the data were processed

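The series holds 8 arrays, 1 per sample. The deposited values are intensities, 1 linear scaled signal per probe set. The authors' program is not given in the sources used here. Trimmed means (2% from each end) were 500.8 to 500.9 and median signals 97.5 to 134.9, so the arrays had been scaled. No detection calls were used, and the number of arrays limits the precision.

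Symbols came from the array's annotation (1 symbol for 7018 probe sets, several for 308, none for 1473). All 55 members had a gene identifier in the rat RefSeq list with the same symbol. Signals plus 7 (the rounded 10th percentile) were put on a log2 scale. The 59 control probe sets and the 2611 with a mean under the 30th percentile (36.0) were left out. The 6129 others went into a linear model per probe set (limma 3.58.1, R 4.3.3, eBayes with intensity trend), with Benjamini-Hochberg adjustment and a threshold of 0.05. Errors of log2 differences are standard errors. The fit was tested on simulated data with independent noise in each probe set, which does not cover genes that move together between arrays.

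Groups came from the titles, since all descriptions mention induction. The members and lists were chosen with earlier results of these data known. Genes named in full were those called, the 3 with the lowest p and the highest signal of each complex, isoform pairs, genes whose probe sets disagreed, and called genes of the other lists with 7 fixed ones. Other genes and probe sets were named after their values were seen. Of the 7 fixed genes, Ppargc1a, Nrf1 and Tfam have no value here. Alternatives were other constants, filters, scalings, a fit without trend, a replicate block, averaging all probe sets of a gene, and fits without 1 array or without replicate 2 of both groups, singled out because its source wording departs from the rest.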

Additional observations from a re-analysis of the deposited data

Results flagged for a closer look

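In 122 groups of 4 arrays (the 55 genes and the 6 medians, in both groups), 12 had 1 array far from the other 3 on the log2 scale. Chance gives about 5% where groups are independent. These are not, since the genes moved together between arrays and the medians are made from them, so the count is not read against that share. In 7 of the 12 it was uninduced replicate 4 that lay lowest. They were Ndufa6 (1305 against 1777 to 1888), Ndufa8 (1576 against 2880 to 3204), Ndufv2 (3041 against 4068 to 4282), Uqcr11 (8410.1 against 10155 to 10486), Cox4i1 (15814 against 21145 to 22109), Cox8a (11926 against 21874 to 22668) and the median of complex IV (-0.29 against 0.13 to 0.19).

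The other 5 were spread over the arrays. Ndufb9 (5129.9 against 3904 to 4020) and Ndufs1 (341 against 249.8 to 262) were highest on induced replicate 1. Uqcr11 was lowest on induced replicate 4 (7160.5 against 8758 to 8950.5). On uninduced replicate 3, Ndufv3 was lowest (2415 against 2934 to 2979) and Cox8b highest (95.1 against 37.9 to 41.3).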

How the results depend on the processing

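Of 18 alternatives, several changed the count of called members. The 1 lower call became 0 with median centring, 0 without the intensity trend, 0 with the replicate block and 0 without replicate 2 of both groups, and lay between 0 and 3 without 1 array. With the block Atp5f1e had a limma adjusted p of 0.0669. The count of higher calls was 0 in each alternative. Over all probe sets, 182 were lower: 101 without the trend, 80 without replicate 2 of both groups and 112 to 164 without 1 array. The 251 higher were 141 without replicate 2 of both groups. The members' median ranged from -0.18 to -0.08 without 1 array, and that of all genes from -0.09 to -0.0084. With quantile normalization Ndufa4 turned to 0.0065 and Atp5f1b to 0.0014. Without 1 array Ndufa4 ranged from -0.15 to 0.0569, Atp5f1b from -0.19 to 0.0524 and Cs from -0.0882 to 0.0522. Without replicate 2 of both groups Atp5f1b was 0.0483 and Cs 0.0294, and with median centring Cs was 0.0079. The cause was not tested. Of 29 named genes 18 kept direction and call, or lack of a call, in every alternative that tested them. Of the 6 named genes called in the main fit, only 1, Idh2, was called in every alternative. The replicate numbers correlated at -0.14, 0.06, -0.09 and 0.19 between the groups' deviations over all probe sets. Over the whole array they thus gave little sign of pairing. The level over the 55 genes was lower on the induced array for each of the 4 replicate numbers, and over all genes for 2. With the replicate block 6 of the 55 genes (10.9%) were lower at an unadjusted limma p under 0.05, beside 9.27% of all genes. Without the block 3 were. Whether the numbers pair the samples was not tested. Signals near the control probe sets limit Cox5a, Cox8b and Cox6c-ps1.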
